A study of Mus musculus with 12 samples.

Results

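Heme oxygenase and iron handling genes were followed in mouse liver after ischemia-reperfusion injury (IRI). The 10 genes were taken by symbol from the 25947 entries of the deposited expression table: Hmox1 and Blvrb of heme breakdown, the plasma carriers Hpx and Trf, the ferritin chains Fth1 and Ftl1, the membrane proteins Tfrc, Slc39a14 and Slc40a1, and the hormone Hamp. All 10 symbols were found once each, and all 10 passed the filter on low values described with the tests. There were 12 liver samples, 3 in each of 4 groups. HFD-IRI mice ate a high-fat diet (HFD) for 4 months, which was used to produce a fatty liver, and then had IRI. HFD-Sham mice had the high-fat diet and a sham operation, ND-IRI mice a normal diet (ND) and IRI, and ND-Sham mice a normal diet and a sham operation. All mice were labelled as wild type, and the sources used here give no strain, sex or age. IRI meant tying the left and middle branches of the vessel bundle that enters the liver for 1 h and collecting tissue after 6 h of restored flow, while the sham operation left the branches open. The clamp thus reached part of the liver, and the labels do not say which lobe was sequenced.

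Heme oxygenase opens the heme ring and releases iron, carbon monoxide and biliverdin, which biliverdin reductases then reduce. Hepatocytes take up iron bound to transferrin or free of it, store it inside shells of ferritin heavy and light chains, and release it through ferroportin. Hepcidin, made by hepatocytes, causes ferroportin to be internalised and degraded throughout the body. The liver is the main site of hepcidin, transferrin and hemopexin production and a main iron store, and its resident macrophages, the Kupffer cells, take part in recycling heme iron from red cells.

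Values are given as TPM, which corrects read counts for transcript length and scales every sample to the same total. Levels can thus be set side by side between genes, while comparisons between samples also depend on this scaling. Other scalings moved some calls, as given below. Sequencing depth cannot be read from TPM, so it is unknown and no counting interval can be given. Between 18935 and 20425 genes were above 0 TPM per sample, and the 10 genes together took 2.68% to 4.08% of each sample's total. The labelled tissue was checked with 8 hepatocyte markers, all of which were present in every group with a summed level of 92922 to 122673 TPM. Differences were tested over 13364 genes by limma (two-sided, on log2(TPM + 1)), with 0.05 as the threshold for the adjusted p of a call. The added 1 makes log2 fold changes of genes near 0 TPM too small. Nothing in the labels says whether the samples are separate animals, so the spread behind the p-values may be technical. Earlier results of these data set 2 samples, ND-IRI 1 and ND-Sham 1, apart from the rest of their groups, and values without both are given where a call of the 10 genes or a count of calls changes by over 1.5 times. Each comparison of IRI with sham shares its samples with the comparisons between the diets.

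IRI moved heme breakdown, ferritin heavy chain and iron transport on both diets, while the carriers, the ferritin light chain, the transferrin receptor and hepcidin did not pass the test. In HFD-IRI against HFD-Sham livers, 3 of the 10 genes rose (Hmox1, Slc39a14, Fth1) and 2 fell (Slc40a1, Blvrb). In ND-IRI against ND-Sham livers the same 5 genes were called in the same directions. These counts stand beside a broad response, since 45.9% of all tested genes were called on the high-fat diet (24.0% higher, 21.9% lower) and 46.8% on the normal diet (30.2% higher, 16.6% lower). Over all genes, the median log2 fold change was 0.01 on the high-fat diet and 0.16 on the normal diet, against 0.11 and 0.19 for the 10 genes. Median-ratio scaling brought the normal diet median to -0.01, with 3437 genes higher and 3384 lower in place of 4035 and 2213, and quantile normalization brought it to -0.05, with 3180 higher and 3860 lower. The TPM ranges of the IRI and sham samples did not overlap for 7 of the 10 genes on the high-fat diet (3 higher, 4 lower), where 59.4% of all genes were free of overlap (30.9% higher, 28.5% lower). On the normal diet 6 of 10 did not overlap (4 higher, 2 lower), where the share was 51.4% (31.4% higher, 20.0% lower).

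**Figure D1:**
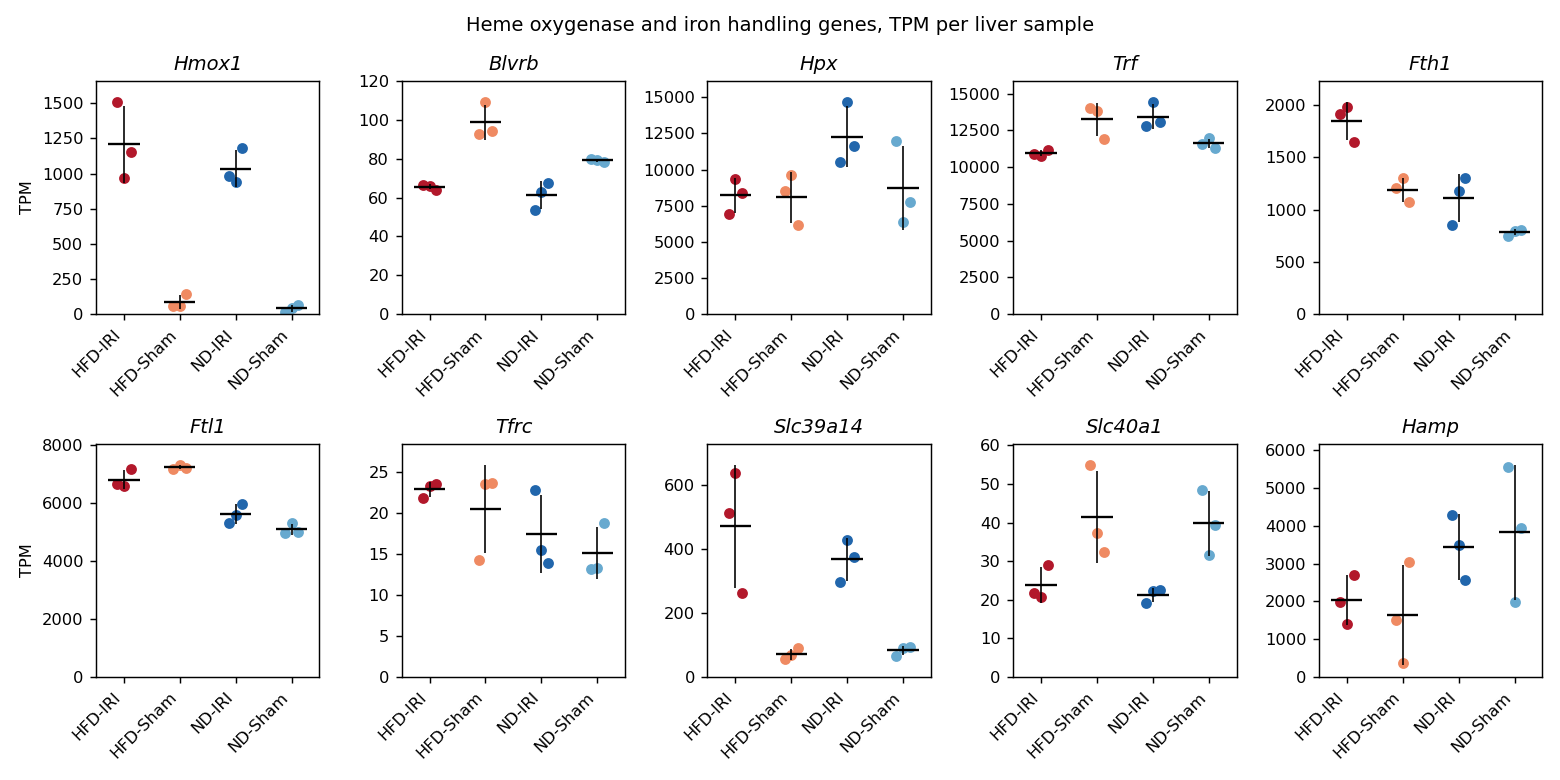
TPM of the 10 genes in each liver sample (y axis, starting at 0), in the groups HFD-IRI, HFD-Sham, ND-IRI and ND-Sham from left to right; points are samples, the horizontal line is the mean and the vertical line the SD (n = 3). Hmox1 and Slc39a14 were higher in every IRI sample than in any sham sample, Slc40a1 was lower, and Fth1 was highest in the HFD-IRI samples.

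Hmox1, the inducible heme oxygenase, had the largest change of the 10 genes. It stood at 1508, 967 and 1154 TPM in HFD-IRI livers, against 59.4, 57.9 and 142 TPM in HFD-Sham livers. On the normal diet it stood at 981, 943 and 1183 TPM in ND-IRI livers, against 17.0, 45.7 and 62.7 TPM in ND-Sham livers. Every IRI sample was above every sham sample, and the lowest IRI value, 943 TPM, was several times the highest sham value, 142 TPM in HFD-Sham 3. The means were 1209 ± 275 TPM in HFD-IRI and 86.2 ± 47.9 TPM in HFD-Sham livers (SD, n = 3 each), a ratio of 14.0 (log2 fold change 3.90, SE 0.424, limma adjusted p = 2.96e-05). They were 1036 ± 129 TPM in ND-IRI and 41.8 ± 23.1 TPM in ND-Sham livers (SD, n = 3 each), a ratio of 24.8 (log2 fold change 4.77, SE 0.424, limma adjusted p = 8.05e-06). By size of p, Hmox1 ranked 392nd of the tested genes on the high-fat diet and 158th on the normal diet. The sham samples spread more than the IRI samples in relative terms, with a highest to lowest ratio of 3.69 in ND-Sham and 2.44 in HFD-Sham livers, against 1.56 in HFD-IRI and 1.26 in ND-IRI livers.

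Blvrb, biliverdin reductase B, moved the other way. It had 66.4, 66.0 and 64.0 TPM in HFD-IRI livers, against 92.6, 109 and 94.3 TPM in HFD-Sham livers. It had 53.7, 63.0 and 67.6 TPM in ND-IRI livers, against 80.0, 79.4 and 78.2 TPM in ND-Sham livers. No IRI sample reached the lowest sham sample. Blvrb fell by 0.58 on the log2 scale on the high-fat diet (SE 0.111, adjusted p = 0.00130) and fell by 0.37 on the normal diet (SE 0.111, adjusted p = 0.0169). The normal diet call was lost when only the ND groups were fitted (adjusted p = 0.0569) and when ND-Sham 1 and ND-IRI 1 were both left out (log2 fold change -0.27, adjusted p = 0.0854).

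Among the other genes of heme breakdown, Hmox2, the constitutive heme oxygenase, fell on the normal diet (log2 fold change -0.47, adjusted p = 0.00472) and had a log2 fold change of -0.20 on the high-fat diet (adjusted p = 0.167). Blvra, biliverdin reductase A, fell on the high-fat diet (-0.42, adjusted p = 0.0383) and had -0.26 on the normal diet (adjusted p = 0.176). Hmox1 was thus the heme breakdown gene that was higher after IRI, and the other 3 of the 4 measured had negative estimates on both diets.

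Most of the listed enzymes that build heme were lower. Of the 8, 7 fell and 0 rose on each diet, against the 21.9% and 16.6% of all genes that fell on the high-fat and normal diets. The largest falls were those of Cpox, coproporphyrinogen oxidase, with log2 fold changes of -1.49 (SE 0.132, adjusted p = 9.09e-06) on the high-fat and -1.68 (SE 0.132, adjusted p = 3.64e-06) on the normal diet. Alas1, the first and rate-limiting enzyme of heme synthesis in liver, came next. It averaged 199 ± 26.6 TPM in HFD-IRI and 493 ± 50.0 TPM in HFD-Sham livers, and 180 ± 52.3 TPM in ND-IRI and 423 ± 100 TPM in ND-Sham livers (SD, n = 3 each). Its log2 fold changes were -1.31 (adjusted p = 0.000535) and -1.25 (adjusted p = 0.000675). Uros was the enzyme that was not called, with -0.57 (adjusted p = 0.0598) on the high-fat and -0.08 (adjusted p = 0.808) on the normal diet. The median log2 fold change of the 8 enzymes was -0.75 on the high-fat and -0.59 on the normal diet, and none of these 8 had a positive estimate. Alas2, a second form of Alas1, was listed with the red cell precursor markers and is not among the 8. It went the other way, rising by 0.55 on the normal diet (adjusted p = 0.0126). Its means there were 100 TPM in ND-IRI and 68.7 TPM in ND-Sham livers. On the high-fat diet the Alas2 estimate was also positive. Of the 8 hepatocyte markers, 2 fell and 0 rose on the high-fat diet (median -0.15), and 3 fell and 0 rose on the normal diet (median -0.28). These counts stand beside the same 21.9% and 16.6% of all genes that fell. The summed level of these markers was 92922 to 104323 TPM in HFD-IRI and 96321 to 111241 TPM in HFD-Sham livers, and 93159 to 121987 TPM in ND-IRI and 102028 to 122673 TPM in ND-Sham livers. The IRI and sham ranges of the markers overlapped on both diets. Among them Apob, the apolipoprotein of very low density lipoprotein, fell on both diets (-0.94, adjusted p = 0.000607, and -0.50, adjusted p = 0.0223). The part of hepatocytes in the fall of the heme enzymes was not tested.

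**Figure D2:**
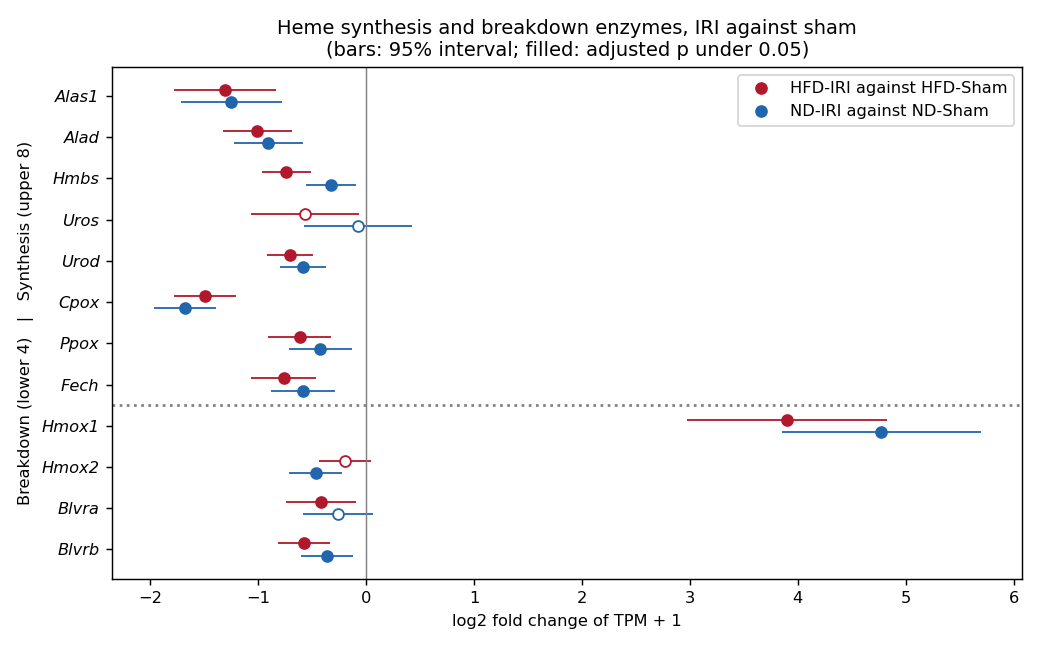
Log2 fold change of TPM + 1 (x axis) of 8 heme synthesis enzymes and 4 heme breakdown enzymes, HFD-IRI against HFD-Sham (red) and ND-IRI against ND-Sham (blue); bars are 95% intervals, and filled points had an adjusted p under 0.05. Hmox1 stands at 3.90 and 4.77, while these 8 synthesis enzymes, which leave out Alas2, lie below 0.

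Of 12 genes of heme and haemoglobin handling, 1 rose and 5 fell on each diet. On the high-fat and normal diets 24.0% and 30.2% of all genes rose, and 21.9% and 16.6% fell. Flvcr1, a heme exporter of the plasma membrane in earlier work, rose by 1.37 (adjusted p = 0.000201) on the high-fat and 1.72 (adjusted p = 3.91e-05) on the normal diet. The largest falls were those of Flvcr2, a transporter related to Flvcr1 (-1.41 and -2.09, adjusted p = 0.00168 and 0.000111), and Lrp1, the receptor for heme bound to hemopexin (-0.94 and -0.55, adjusted p = 0.00326 and 0.0465).

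Transcripts of red cell precursors and blood cells moved with these results. The summed level of 8 red cell precursor markers, globins among them, was 656 to 2303 TPM in HFD-IRI and 73.9 to 124 TPM in HFD-Sham livers, and 491 to 1554 TPM in ND-IRI and 97.9 to 129 TPM in ND-Sham livers. In ND-Sham livers the sum mainly follows Alas2, with a mean of 68.7 TPM against 21.1 TPM for the globin Hbb-bs and 17.0 TPM for Hba-a1. In ND-IRI livers these means were 100, 441 and 256 TPM. Of the 5 of these markers that passed the filter, 4 rose on the high-fat and 5 on the normal diet. The summed level of 8 neutrophil markers was 194 to 527 TPM in HFD-IRI and 6.83 to 16.1 TPM in HFD-Sham livers, and 234 to 634 TPM in ND-IRI and 18.9 to 21.8 TPM in ND-Sham livers, and all 7 that passed the filter rose on both diets (Ly6g was at 0 in all HFD-Sham samples). The summed level of 8 recruited macrophage markers was 701 to 1369 TPM in HFD-IRI and 382 to 684 TPM in HFD-Sham livers, and 504 to 970 TPM in ND-IRI and 408 to 483 TPM in ND-Sham livers, with 5 of 8 higher and 1 lower on each diet. Beside these marker counts, 24.0% and 30.2% of all genes rose on the high-fat and normal diets, and 21.9% and 16.6% fell. On the normal diet the macrophage marker that fell was F10, with means of 278 TPM in ND-IRI and 374 TPM in ND-Sham livers. Spp1, which rose, averaged 389 TPM in ND-IRI and 61.4 TPM in ND-Sham livers. On that diet the sum thus mainly follows F10 and Spp1 and is a poor measure of the cell type. The part of red cell precursors, neutrophils and macrophages in the Hmox1 change was not tested.

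The 7 genes listed for control of Hmox1 moved mostly upward. On each diet 5 rose and 0 fell, with a median log2 fold change of 1.64 on the high-fat and 1.39 on the normal diet. The shares over all genes were 24.0% and 30.2% higher, and 21.9% and 16.6% lower. Maff, a small Maf protein that pairs with Nrf2 or Bach1 at antioxidant elements, rose by 2.39 (adjusted p = 0.0125) and 2.32 (adjusted p = 0.0140). Hif1a, the oxygen-regulated transcription factor subunit, rose by 2.06 (adjusted p = 1.65e-06) and 2.13 (adjusted p = 1.03e-06). Bach1, the heme-sensing repressor of Hmox1, rose as well, by 1.64 and 1.39 (adjusted p = 0.000180 and 0.000494), as did Nfe2l2, which encodes the activator Nrf2, by 0.61 and 0.96 (adjusted p = 0.0189 and 0.00149). The activator and the repressor transcripts were thus both higher after IRI.

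The genes whose log2(TPM + 1) followed Hmox1 most closely over the 12 samples, among 8628 genes averaging 5 TPM or more, were Inhbb, an inhibin and activin subunit (Pearson r = 0.992), Akap12, a scaffold protein (0.986), Suco (0.980), Esam, an endothelial adhesion molecule (0.978), and Dnajb9, a chaperone partner of the endoplasmic reticulum (0.977). The 12 samples fall into IRI and sham groups, so these values describe a shared split of the groups. Inhbb averaged 56.2 ± 5.00 TPM in HFD-IRI and 5.57 ± 2.84 TPM in HFD-Sham livers, and 48.1 ± 7.15 TPM in ND-IRI and 3.24 ± 2.15 TPM in ND-Sham livers (SD, n = 3 each). Beside Esam, the summed level of 8 markers of sinusoidal endothelium was 160 to 197 TPM in HFD-IRI and 87.6 to 150 TPM in HFD-Sham livers, and 147 to 182 TPM in ND-IRI and 76.6 to 110 TPM in ND-Sham livers. Over all genes 24.0% and 30.2% rose on the high-fat and normal diets, and 21.9% and 16.6% fell. Of the 8 endothelial markers, 1 fell on each diet, while 2 rose on the high-fat diet (median log2 fold change of the 8, 0.02) and 3 on the normal diet (0.31). Lyve1 had the largest rise, with mean levels of 78.9 TPM in HFD-IRI and 14.8 TPM in HFD-Sham livers, and 67.2 TPM in ND-IRI and 8.05 TPM in ND-Sham livers, while Kdr fell on both diets (-1.36, adjusted p = 0.000577, and -0.91, adjusted p = 0.00637).

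The plasma carriers were among the most abundant transcripts of the tissue and did not pass the test. Hpx, hemopexin, which binds free heme, had 6937, 9345 and 8361 TPM in HFD-IRI livers, against 8536, 9604 and 6133 TPM in HFD-Sham livers. It had 10534, 14662 and 11668 TPM in ND-IRI livers, against 11998, 6409 and 7784 TPM in ND-Sham livers. The ND ranges overlapped because ND-Sham 1, at 11998 TPM, lay inside the ND-IRI range. The log2 fold change was 0.04 on the high-fat diet (95% interval -0.49 to 0.56, adjusted p = 0.918) and 0.53 on the normal diet (0.01 to 1.05, adjusted p = 0.0901). Without ND-Sham 1 the normal diet value was 0.78 and passed (adjusted p = 0.0130), and without ND-IRI 1 as well it was 0.89 (adjusted p = 0.00994). Hp, haptoglobin, which binds free haemoglobin, had estimates of -0.20 (adjusted p = 0.470) and 0.55 (adjusted p = 0.0538) on the high-fat and normal diets.

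Trf, transferrin, had 10903, 10787 and 11166 TPM in HFD-IRI livers, against 13998, 13824 and 11944 TPM in HFD-Sham livers. It had 12799, 14419 and 13096 TPM in ND-IRI livers, against 11547, 11970 and 11330 TPM in ND-Sham livers. The IRI samples were thus all lower than the sham samples on the high-fat diet and all higher on the normal diet. The log2 fold changes were -0.27 (SE 0.116, adjusted p = 0.0728) on the high-fat and 0.21 (SE 0.116, adjusted p = 0.160) on the normal diet. The normal diet estimate was -0.0044 after median-ratio scaling, and the high-fat diet value passed without HFD-Sham 3 (-0.35, adjusted p = 0.0473).

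Ferritin chains carry an iron-responsive element, a hairpin bound by the iron regulatory proteins Irp1 and Irp2 when cell iron is low. In the 5′ UTR it blocks translation, and in the 3′ UTR of the transferrin receptor it shields the transcript from decay. The elements are shown because 4 of the 10 genes hold one, which transcript levels alone cannot read where the control is on translation. Each 30-base stretch below was found in the GENCODE M21 transcripts (build GRCm38) as a bulged C, 5 paired bases and a CAGTG loop start. Capitals mark the bulged C and the CAGTG. The deposited values used build GRCm39, and the coordinates are not from it.
Fth1, 5′ UTR, chr19:9982731-9982760, plus strand: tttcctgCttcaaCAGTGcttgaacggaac
Ftl1, 5′ UTR, chr7:45459779-45459808, minus strand: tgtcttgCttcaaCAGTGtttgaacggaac
Slc40a1, 5′ UTR, chr1:45925465-45925494, minus strand: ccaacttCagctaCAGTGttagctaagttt
Tfrc, 3′ UTR, first of 4, chr16:32631218-32631247, plus strand: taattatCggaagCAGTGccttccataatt
Of 21877 genes, 23 (0.105%) held such a stretch in the 5′ UTR and 100 (0.457%) in the 3′ UTR. The element is a sequence match and says nothing of its use in these livers.

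The transcripts with this element did not move together. Fth1, the heavy chain that oxidises iron for storage, had 1915, 1983 and 1645 TPM in HFD-IRI livers, against 1202, 1299 and 1070 TPM in HFD-Sham livers. It had 852, 1182 and 1301 TPM in ND-IRI livers, against 748, 795 and 803 TPM in ND-Sham livers. Every IRI sample was above every sham sample of its diet. Fth1 rose by 0.63 (SE 0.152, adjusted p = 0.00534) on the high-fat and 0.49 (SE 0.152, adjusted p = 0.0207) on the normal diet. The call held in 14 of 14 alternatives on the high-fat diet and in 10 of 14 on the normal diet. It was lost there with median-ratio scaling (0.27, adjusted p = 0.163) and without ND-Sham 1 (adjusted p = 0.0536), ND-IRI 2 (adjusted p = 0.0729) or ND-IRI 3 (adjusted p = 0.0964).

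Ftl1, the light chain that helps to form the iron core, was more abundant than Fth1 in every sample. It had 6684, 6597 and 7185 TPM in HFD-IRI livers, against 7189, 7326 and 7226 TPM in HFD-Sham livers. It had 5306, 5608 and 5985 TPM in ND-IRI livers, against 4957, 5330 and 5005 TPM in ND-Sham livers. Its samples differed by diet more than by operation, with all 6 HFD samples above all 6 ND samples. On the high-fat diet the highest IRI sample, 7185 TPM, lay just below the lowest sham sample. The log2 fold change with IRI was -0.09 (95% interval -0.31 to 0.14, adjusted p = 0.511) on the high-fat and 0.14 (-0.08 to 0.37, adjusted p = 0.279) on the normal diet, where median-ratio scaling turned it to -0.07. The pseudogene Ftl1-ps1 was listed at 78.5 to 130 TPM and could share reads with Ftl1, so the split of reads between them is uncertain.

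The heavy chain therefore made up more of the ferritin transcripts after IRI. Fth1 stood at 28.7%, 30.1% and 22.9% of the Ftl1 level in HFD-IRI livers, against 16.7%, 17.7% and 14.8% in HFD-Sham livers. It stood at 16.1%, 21.1% and 21.7% in ND-IRI livers, against 15.1%, 14.9% and 16.0% in ND-Sham livers. The HFD-IRI samples had the highest ratios of all 12. The log2 ratio was higher by 0.53 in IRI than in sham livers within diets (exact permutation test within diets, two-sided, p = 0.005, the smallest that its 400 arrangements allow, and 0.01 after adjustment over 4 such tests). It was 0.72 higher on the high-fat and 0.34 higher on the normal diet, and this comparison was chosen after the values were seen.

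**Figure D3:**
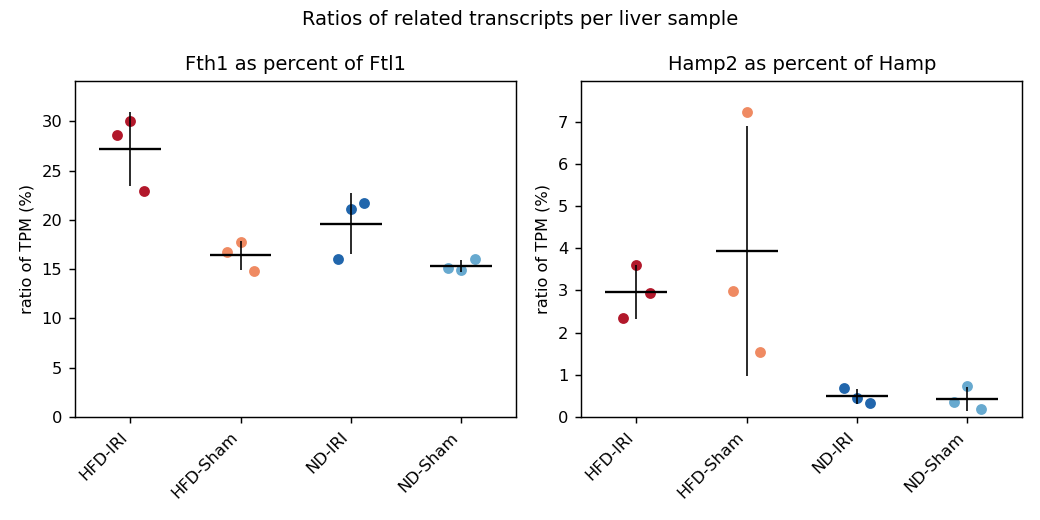
Fth1 as percent of Ftl1 (left) and Hamp2 as percent of Hamp (right), from the TPM of each liver sample; points are samples, the horizontal line is the mean and the vertical line the SD (n = 3), and both y axes start at 0. The Fth1 share is highest in HFD-IRI samples, and the Hamp2 share is higher in every HFD sample than in any ND sample.

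Among 11 tested genes of iron storage, sensing and iron-sulfur assembly, 2 rose on each diet, while 3 fell on the high-fat and 2 on the normal diet. These counts stand beside 24.0% and 30.2% of all genes that rose, and 21.9% and 16.6% that fell. Fbxl5, the iron-sensing subunit of the ligase that degrades Irp2, rose by 0.71 (adjusted p = 0.00189) and 1.09 (adjusted p = 0.000103). Pcbp1, a chaperone that delivers iron to ferritin, rose by 0.49 (adjusted p = 0.00518) and 0.63 (adjusted p = 0.00100). Aco1, which encodes the aconitase that becomes Irp1, fell (-0.83 and -0.41, adjusted p = 7.02e-05 and 0.00600). Ireb2, which encodes Irp2, averaged 30.6 ± 6.77 TPM in HFD-IRI and 31.8 ± 1.82 TPM in HFD-Sham livers. It averaged 38.2 ± 6.31 TPM in ND-IRI and 28.5 ± 2.69 TPM in ND-Sham livers (SD, n = 3 each). Every ND-IRI sample was above every ND-Sham sample, though Ireb2 was not among the 2 genes called higher. The transcript of Irp1 was thus lower and that of the Irp2 degrading subunit higher on both diets, while the Irp2 transcript had no shared direction.

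Slc39a14 encodes Zip14, a transporter that brings iron not bound to transferrin, as well as zinc and manganese, into hepatocytes. It had 513, 636 and 261 TPM in HFD-IRI livers, against 54.2, 67.5 and 88.6 TPM in HFD-Sham livers. It had 297, 428 and 373 TPM in ND-IRI livers, against 65.2, 90.1 and 92.7 TPM in ND-Sham livers. The lowest IRI sample, HFD-IRI 3 at 261 TPM, was still above the highest sham sample. The ratio of means was 6.70 on the high-fat diet (log2 fold change 2.66, SE 0.294, adjusted p = 3.34e-05) and 4.43 on the normal diet (2.14, SE 0.294, adjusted p = 0.000137). After Hmox1 it was the gene of the 10 with the largest rise on each diet.

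Slc40a1 encodes ferroportin, the iron exporter of hepatocytes and macrophages. It had 21.8, 20.6 and 29.1 TPM in HFD-IRI livers, against 55.0, 37.2 and 32.4 TPM in HFD-Sham livers. It had 19.2, 22.2 and 22.4 TPM in ND-IRI livers, against 48.5, 31.6 and 39.4 TPM in ND-Sham livers. No IRI sample reached the lowest sham sample of its diet. Slc40a1 fell by 0.75 on the log2 scale on the high-fat diet (SE 0.210, adjusted p = 0.0118) and fell by 0.86 on the normal diet (SE 0.210, adjusted p = 0.00574). Without HFD-Sham 1, the highest sample at 55.0 TPM, the high-fat diet value was -0.54 and did not pass (adjusted p = 0.0544).

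Kupffer cell markers moved in the same direction, though most did not pass the test. The summed level of 8 such markers was 71.7 to 182 TPM in HFD-IRI and 197 to 328 TPM in HFD-Sham livers, and 69.2 to 137 TPM in ND-IRI and 181 to 214 TPM in ND-Sham livers. On each diet 3 of the 8 fell and 0 rose, where 21.9% and 16.6% of all genes fell on the high-fat and normal diets. Among those that fell was the complement receptor Vsig4 (-0.95, adjusted p = 0.0114, and -1.33, adjusted p = 0.00156, on the high-fat and normal diets). On the normal diet Marco, Clec1b and Folr2 changed little (-0.04, -0.11 and -0.12) and were not called. No estimate of the 8 was positive, and none of the 8 was at 0. The part of Kupffer cells in the Slc40a1 change was not tested, and in tissue samples fewer cells of a type and less RNA per cell cannot be told apart.

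Tfrc, transferrin receptor 1, was the least abundant of the 10 genes. It had 21.8, 23.3 and 23.5 TPM in HFD-IRI livers, against 14.2, 23.5 and 23.6 TPM in HFD-Sham livers. It had 22.9, 15.5 and 13.8 TPM in ND-IRI livers, against 13.2, 13.3 and 18.7 TPM in ND-Sham livers. The groups overlapped on both diets, and 1 sample of each of HFD-Sham, ND-IRI and ND-Sham lay apart from its other two. The log2 fold change was 0.19 (95% interval -0.30 to 0.68, adjusted p = 0.516) on the high-fat and 0.18 (-0.31 to 0.67, adjusted p = 0.534) on the normal diet, and the normal diet estimate turned to -0.018 with median-ratio scaling and to -0.094 with quantile normalization. Tfr2, the second transferrin receptor, which senses transferrin iron in hepatocytes, fell on both diets (-0.52, adjusted p = 0.00673, and -0.75, adjusted p = 0.000679).

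Of 11 tested genes of iron uptake, reduction and transport besides these, 4 rose and 2 fell on each diet. On the high-fat and normal diets 24.0% and 30.2% of all genes rose, and 21.9% and 16.6% fell. Lcn2, lipocalin 2, which binds iron-loaded siderophores and is also made by neutrophils, rose by 3.61 (SE 0.780, adjusted p = 0.00285) and 4.99 (SE 0.780, adjusted p = 0.000332). Steap4, a metalloreductase, averaged 1005 ± 467 TPM in HFD-IRI and 157 ± 33.9 TPM in HFD-Sham livers, and 1749 ± 785 TPM in ND-IRI and 65.3 ± 6.66 TPM in ND-Sham livers (SD, n = 3 each). Its log2 fold changes were 2.60 (adjusted p = 9.52e-05) and 4.63 (adjusted p = 2.12e-06). Steap1, of the same family, rose by 3.10 (adjusted p = 4.96e-07) and 2.23 (adjusted p = 2.27e-06). Steap3, the ferrireductase known from endosomes of red cell precursors, fell on both diets (-1.19, adjusted p = 5.76e-05, and -0.90, adjusted p = 0.000347), and with Tfr2 it made up the falls.

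Hamp, hepcidin, varied widely among samples of 1 group and did not pass the test. It had 1979, 1405 and 2709 TPM in HFD-IRI livers, against 1512, 379 and 3032 TPM in HFD-Sham livers. It had 4287, 3495 and 2552 TPM in ND-IRI livers, against 5554, 1992 and 3938 TPM in ND-Sham livers. The IRI samples lay inside the sham range on both diets, and the HFD-Sham samples differed 8.01-fold from lowest to highest. The log2 fold change was 0.70 (95% interval -0.62 to 2.03, adjusted p = 0.366) on the high-fat and -0.06 (-1.39 to 1.26, adjusted p = 0.941) on the normal diet. Without HFD-Sham 2, at 379 TPM, the high-fat diet estimate turned to -0.13, and without ND-Sham 1 the normal diet estimate turned to 0.27.

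Hepcidin transcription is known to be raised by bone morphogenetic protein (BMP) signalling through Smad proteins and by interleukin 6 through Stat3. The stretch of the Hamp promoter where both act is shown because genes of both inputs moved while Hamp did not pass. It covers the 250 bases before the transcript start in the RefSeq promoter table (build GRCm38.p6, chr7:30944030-30944279, minus strand). Capitals mark the motifs found in it: GGCGCC, the core of a BMP response element, at bases -109 to -104 from the start; TTCNNNGAA, a Stat site, at -97 to -89; and TGANTCA, an AP-1 site, at -87 to -81.
Hamp promoter: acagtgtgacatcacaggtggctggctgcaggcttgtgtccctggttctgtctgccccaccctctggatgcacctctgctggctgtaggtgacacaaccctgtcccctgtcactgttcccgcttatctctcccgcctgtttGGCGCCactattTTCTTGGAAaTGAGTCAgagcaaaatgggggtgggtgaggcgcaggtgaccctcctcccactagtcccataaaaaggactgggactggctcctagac
The 3 motifs do not overlap each other. Searched on both strands in windows of 300 bases, GGCGCC was in 11.9%, TTCNNNGAA in 8.30% and TGANTCA in 7.81% of 32851 promoters. A match is a string of letters and not evidence of binding in these livers.

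Of 26 tested genes of hepcidin control, 10 rose on the high-fat and 11 on the normal diet, while 4 and 2 fell. The shares over all genes were 24.0% and 30.2% higher, and 21.9% and 16.6% lower. On the inflammatory side, Socs3, a feedback inhibitor that Stat3 induces, rose by 5.06 (SE 0.305, adjusted p = 1.13e-06) and 3.17 (SE 0.305, adjusted p = 1.37e-05). Il6 averaged 3.00 ± 1.06 TPM in HFD-IRI and 0.167 ± 0.148 TPM in HFD-Sham livers, and 3.42 ± 1.88 TPM in ND-IRI and 0.183 ± 0.0907 TPM in ND-Sham livers (SD, n = 3 each), and it rose on both diets (adjusted p = 0.000778 and 0.000602). Stat3 averaged 111 ± 10.7 TPM in HFD-IRI and 34.6 ± 0.489 TPM in HFD-Sham livers, and 120 ± 20.0 TPM in ND-IRI and 35.4 ± 0.812 TPM in ND-Sham livers (SD, n = 3 each), with log2 fold changes of 1.65 and 1.72 (adjusted p = 3.40e-06 and 2.27e-06). Each of these transcripts was higher in every IRI sample than in any sham sample.

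On the BMP side the co-receptor fell, while receptors and several Smad transcripts rose. Hjv, hemojuvelin, the BMP co-receptor that hepcidin expression depends on, had 34.3, 16.3 and 36.9 TPM in HFD-IRI livers, against 159, 194 and 143 TPM in HFD-Sham livers. It had 30.8, 26.7 and 24.3 TPM in ND-IRI livers, against 125, 156 and 154 TPM in ND-Sham livers. The highest IRI sample held less than the lowest sham sample by a wide margin, and Hjv fell on both diets (log2 fold change -2.54, SE 0.250, adjusted p = 1.63e-05, and -2.37, SE 0.250, adjusted p = 2.42e-05). Of the BMP receptors, Acvr1 (0.54, adjusted p = 0.0207, and 0.47, adjusted p = 0.0385) and Bmpr2 (0.49, adjusted p = 0.0125, and 0.50, adjusted p = 0.0107) rose on both diets, and Bmpr1a and Acvr2a had estimates of 0.26 to 0.46 that did not pass. Of the Smad proteins that carry the signal, Smad1 rose (1.46, adjusted p = 0.000126, and 1.13, adjusted p = 0.000632), as did Smad4 (0.76, adjusted p = 0.00257, and 0.91, adjusted p = 0.000822). Smad5 had 0.54 on the high-fat diet (adjusted p = 0.110) and rose by 0.81 on the normal diet (adjusted p = 0.0230). Smad9, the least abundant of them after IRI, fell (-1.31, adjusted p = 0.00686, and -2.41, adjusted p = 0.000130). Id3, a target of BMP signalling, rose by 1.88 (adjusted p = 0.000424) and 1.97 (adjusted p = 0.000283). Other listed targets were less clear, with IRI and sham ranges overlapping on both diets. Atoh8 averaged 9.47 TPM in HFD-IRI and 16.7 TPM in HFD-Sham livers, and 17.2 TPM in ND-IRI and 20.7 TPM in ND-Sham livers. Id1 averaged 40.1 against 33.6 TPM in HFD and 54.6 against 32.6 TPM in ND livers (IRI against sham). Smad7 means were also higher after IRI, while Smad6 IRI samples lay inside the sham range of each diet. Id3 thus did not stand for all of these targets. The ligand transcripts Bmp6 and Bmp2 had estimates between -0.33 and 0.07 and were not called with IRI on either diet.

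**Figure D4:**
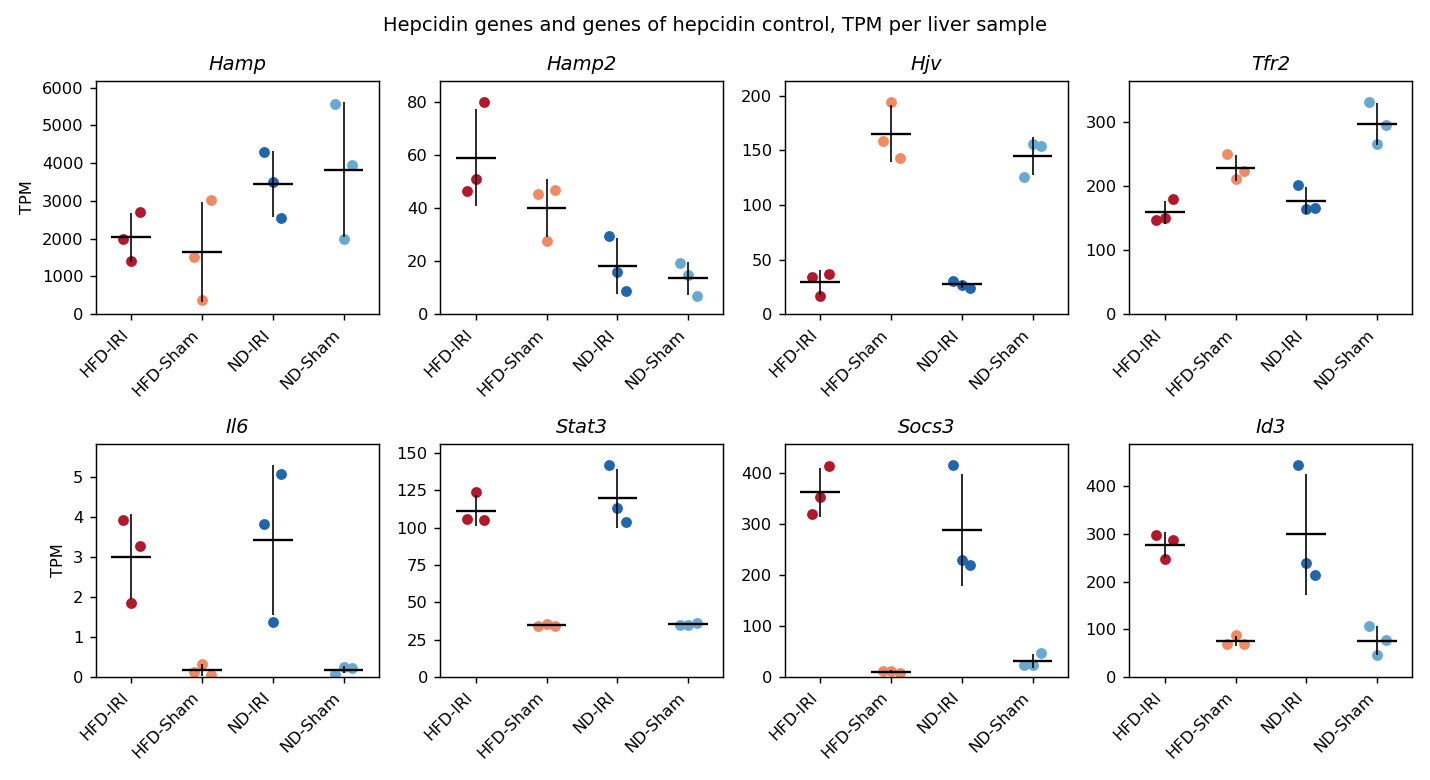
TPM of Hamp, Hamp2 and 6 genes of hepcidin control in each liver sample (y axis, starting at 0), with groups from left to right as HFD-IRI, HFD-Sham, ND-IRI and ND-Sham; points are samples, the horizontal line is the mean and the vertical line the SD (n = 3). Il6, Stat3, Socs3 and Id3 are high and Hjv and Tfr2 low in IRI samples, while Hamp spreads over a wide range within each group.

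Over the 12 samples the genes with log2(TPM + 1) most like Hamp were Ang, angiogenin (Pearson r = 0.869), Serpina1d, an alpha-1 antitrypsin gene (0.845), the major urinary protein genes Mup16 (0.828) and Mup3 (0.821), and Cbs, cystathionine beta-synthase (0.786), among 8628 genes. Each of these genes had its lowest value of the 12 samples in HFD-Sham 2, as Hamp did. Serpina1d and Mup3 were also lower in every HFD sample than in any ND sample. The correlations thus describe 1 low sample and a shared split of the diets. Serpina1d and the Mup genes belong to families with near-identical copies, so their single values are uncertain. Serpina1d averaged 2336 ± 230 TPM in HFD-IRI and 2270 ± 676 TPM in HFD-Sham livers, and 2997 ± 63.9 TPM in ND-IRI and 3745 ± 220 TPM in ND-Sham livers (SD, n = 3 each).

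The comparison of the diets asked how the same genes stood in fatty livers. The ferritin chains were higher on the high-fat diet, and hepcidin was lower without passing the test. In HFD-Sham against ND-Sham livers 2 of the 10 genes rose and 0 fell, against 5.84% of all genes called (4.63% higher, 1.20% lower). In HFD-IRI against ND-IRI livers 1 rose and 0 fell, against 3.86% called (2.38% higher, 1.48% lower). In the sham comparison the groups did not overlap for 3 of 10 genes, all higher, where the share over all genes was 29.9% (25.1% higher, 4.74% lower). In the IRI comparison they did not overlap for 4 of 10 (2 higher, 2 lower), where it was 20.1% (13.1% higher, 7.00% lower). Over all genes the median log2 fold change was 0.17 in the sham comparison, and median-ratio scaling brought it to 0.01, with 278 genes higher and 215 lower in place of 619 and 161. Quantile normalization gave 329 higher and 250 lower.

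Fth1 averaged 1848 ± 179 TPM in HFD-IRI and 1112 ± 232 TPM in ND-IRI livers, and 1190 ± 115 TPM in HFD-Sham and 782 ± 29.6 TPM in ND-Sham livers (SD, n = 3 each). It rose with the high-fat diet in both comparisons, by 0.75 in IRI livers (SE 0.152, adjusted p = 0.0180) and 0.60 in sham livers (SE 0.152, adjusted p = 0.0398). Ftl1 averaged 7247 ± 71.0 TPM in HFD-Sham and 5097 ± 203 TPM in ND-Sham livers and rose by 0.51 (SE 0.104, adjusted p = 0.0153). In IRI livers it averaged 6822 ± 317 TPM on the high-fat and 5633 ± 340 TPM on the normal diet, a log2 fold change of 0.28 that did not pass (adjusted p = 0.203).

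These diet calls were near the threshold. In sham livers the Fth1 call held in 5 and the Ftl1 call in 8 of 14 alternatives, and neither held with median-ratio scaling (0.40, adjusted p = 0.199, and 0.31, adjusted p = 0.433) or without HFD-Sham 1, HFD-Sham 2 or ND-Sham 3. In IRI livers the Fth1 call was lost without HFD-IRI 1 (adjusted p = 0.0719) or HFD-IRI 2 (adjusted p = 0.0670) and when only the groups compared were fitted (adjusted p = 0.0903). Averaged over both operations, a contrast added after the values were seen, Fth1 rose by 0.68 (SE 0.108, adjusted p = 0.00209) and Ftl1 by 0.39 (SE 0.0733, adjusted p = 0.00558), 2 of the 10 higher and 0 lower, where 9.78% of all genes were called (7.52% higher, 2.26% lower). That Fth1 call held in 19 of 19 alternatives, and that of Ftl1 in 17 of 19, being lost with median-ratio scaling (0.28, adjusted p = 0.243) and with no filter (adjusted p = 0.0605). The log2 ratio of Fth1 to Ftl1 was 0.28 higher on the high-fat diet within operations (exact permutation test, two-sided, p = 0.025, 0.0333 after adjustment over 4 tests), with 0.47 in IRI and 0.09 in sham livers. This ratio comparison was also added after the values were seen.

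**Figure D5:**
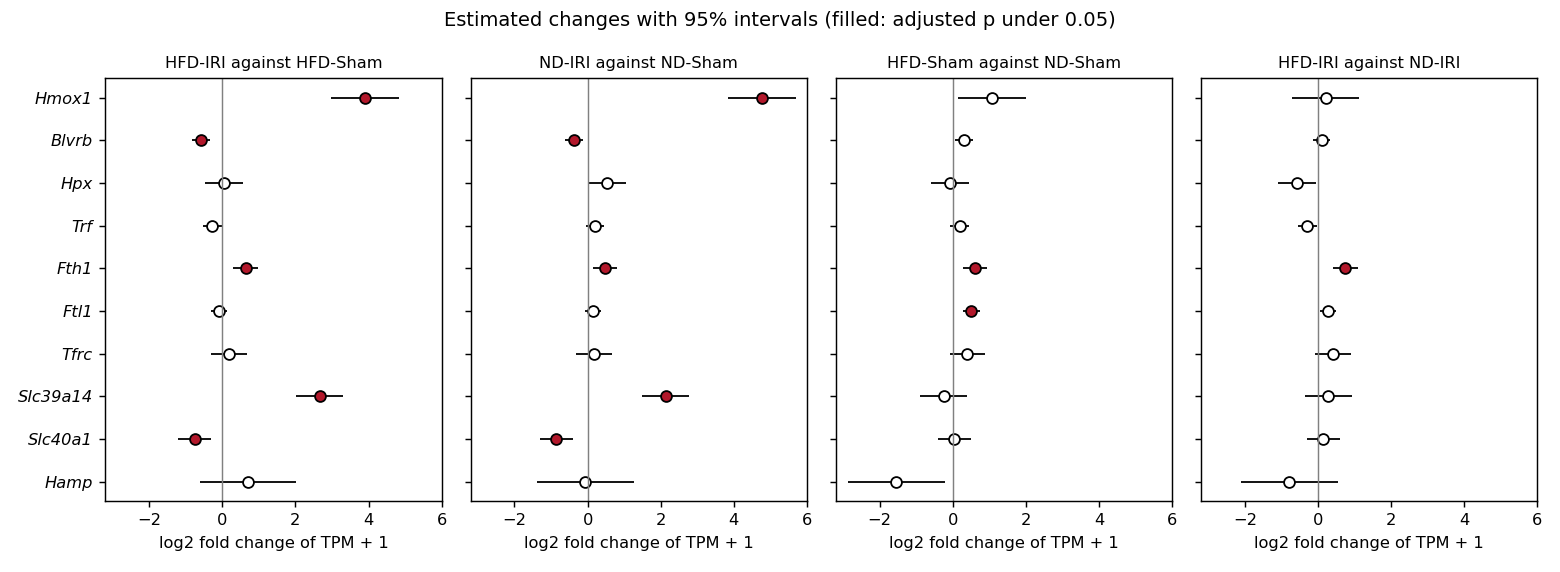
Log2 fold change of TPM + 1 (x axis) of the 10 genes in 4 comparisons; bars are 95% intervals and filled points had an adjusted p under 0.05. Hmox1, Slc39a14 and Fth1 lie to the right and Slc40a1 and Blvrb to the left in both comparisons of IRI with sham, while ferritin chains are the filled points in the comparisons of the diets.

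Hamp averaged 1641 ± 1331 TPM in HFD-Sham and 3828 ± 1784 TPM in ND-Sham livers (SD, n = 3 each), with a log2 fold change of -1.55 (95% interval -2.87 to -0.23, adjusted p = 0.166). In IRI livers it averaged 2031 ± 654 TPM on the high-fat and 3445 ± 868 TPM on the normal diet, with -0.78 (-2.10 to 0.54, adjusted p = 0.630). Averaged over both operations it was at -1.16 (SE 0.430, adjusted p = 0.114). Leaving out HFD-Sham 2 moved the value in sham livers to -0.72. Leaving out HFD-Sham 3 moved it to -2.22, which passed (adjusted p = 0.0426).

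Hamp2, a second hepcidin gene found in mice, stood the other way. It had 46.2, 50.7 and 79.7 TPM in HFD-IRI livers, against 29.4, 16.0 and 8.54 TPM in ND-IRI livers. It had 45.3, 27.4 and 46.9 TPM in HFD-Sham livers, against 19.1, 14.6 and 6.90 TPM in ND-Sham livers. Every HFD sample was above the ND samples of its operation, and Hamp2 rose by 1.77 in IRI livers (SE 0.422, adjusted p = 0.0375) and had 1.56 in sham livers (SE 0.422, adjusted p = 0.0514).

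As a share of Hamp, Hamp2 was 2.34%, 3.61% and 2.94% in HFD-IRI livers, against 0.685%, 0.457% and 0.335% in ND-IRI livers. The share was 3.00%, 7.25% and 1.55% in HFD-Sham livers, against 0.343%, 0.732% and 0.175% in ND-Sham livers. The log2 ratio was 2.91 higher on the high-fat diet (exact permutation test within operations, two-sided, p = 0.005, the smallest that its 400 arrangements allow, and 0.01 after adjustment over 4 tests). This ratio was chosen after the values were seen, with every HFD share above every ND share. The p of the diet comparison therefore describes that split and cannot test it. Between IRI and sham livers the log2 ratio differed by 0.14 (exact permutation test, p = 0.805). Hamp and Hamp2 are close copies, and how the authors' counting divided shared reads between them is not stated in the sources used here.

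Hmox1 had a log2 fold change of 1.08 in HFD-Sham against ND-Sham livers (95% interval 0.16 to 2.01, adjusted p = 0.167), and the ranges overlapped. In HFD-IRI against ND-IRI livers it had 0.21 (-0.72 to 1.13, adjusted p = 0.905). Blvrb was higher in every HFD-Sham than in any ND-Sham sample, with 0.31 that did not pass (SE 0.111, adjusted p = 0.129). In HFD-IRI against ND-IRI livers Hpx (-0.58, adjusted p = 0.264) and Trf (-0.29, adjusted p = 0.233) were lower in every HFD sample without passing. Tfrc had 0.41 and 0.40 in IRI and sham livers (adjusted p = 0.443 and 0.331), Slc39a14 had 0.28 and -0.25 (adjusted p = 0.760 and 0.662), and Slc40a1 had 0.14 and 0.04 (adjusted p = 0.845 and 0.925), the last turning to -0.15 with median-ratio scaling.

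Of the 75 tested other iron and heme genes, 4 rose and 0 fell in HFD-IRI against ND-IRI livers, where 2.38% of all genes rose and 1.48% fell. The 4 were Steap1 (0.90, adjusted p = 0.00899), Cpox (0.60, adjusted p = 0.0245), the iron-sulfur scaffold Iscu (0.50, adjusted p = 0.0271) and Hamp2. The 4 calls became 1 with median-ratio scaling, 2 with quantile normalization and 0 with only the groups compared. They became 1 without ND-IRI 2, ND-IRI 3, HFD-IRI 1 or HFD-IRI 3, and 2 without HFD-IRI 2. In HFD-Sham against ND-Sham livers 7 rose and 2 fell, where 4.63% of all genes rose and 1.20% fell. These 9 calls became 5 with no filter, 2 with only the groups compared and 14 without ND-Sham 1 and ND-IRI 1. They became 0 without ND-Sham 3, 1 without HFD-Sham 2, and 2 without HFD-Sham 1 or ND-Sham 2. By size of p the first 6 were Socs3, which fell (-1.51, adjusted p = 0.0147), Fbxl5 (0.67, adjusted p = 0.0203), Nfs1, the cysteine desulfurase of iron-sulfur assembly (0.50, adjusted p = 0.0267), Slc25a37, the mitochondrial iron importer mitoferrin 1 (0.75, adjusted p = 0.0267), Abcg2, an exporter that carries heme and porphyrins (0.72, adjusted p = 0.0306), and Nfe2l2 (0.78, adjusted p = 0.0329). The summed level of 6 adipocyte markers was 76.2 to 145 TPM in HFD-IRI and 32.4 to 43.1 TPM in ND-IRI livers, and 23.0 to 85.2 TPM in HFD-Sham and 4.35 to 100 TPM in ND-Sham livers (Lep was at 0 in all HFD samples), and their part in the diet differences was not tested.

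The difference between the IRI effects on the high-fat and the normal diet asked whether a fatty liver changed the response. By limma, 0 of the 10 genes were called, against 0.0973% of all genes (0.0449% higher, 0.0524% lower), and 1 of the 10, Trf, had an unadjusted p under 0.05, as did 10.1% of all genes. Trf had a difference of -0.48 (SE 0.164, unadjusted p = 0.0124, adjusted p = 0.308). For Hmox1 the difference was -0.87 (95% interval -2.18 to 0.43, adjusted p = 0.685), and for Slc39a14 it was 0.52 (-0.38 to 1.43, adjusted p = 0.735). For Fth1 it was 0.15 (-0.32 to 0.62, adjusted p = 0.863), for Slc40a1 0.10 (-0.55 to 0.75, adjusted p = 0.936) and for Blvrb -0.21 (-0.55 to 0.13, adjusted p = 0.712). The intervals leave room for differences of these sizes, so the responses are not shown to be alike. For Hamp the interval was the widest of the 10, from -1.10 to 2.64. Of the 75 other iron and heme genes 0 were called and 11 (14.7%) had an unadjusted p under 0.05, against 10.1% of all genes. The 0 became 2 without ND-IRI 1 and 5 without ND-Sham 1 and ND-IRI 1 together.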

How the data were processed

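Per the labels' protocols, stranded poly(A) libraries of 12 liver samples were read on a BGI instrument. The authors deposited TPM per gene symbol and sample, computed against build GRCm39 per the submitters' processing notes; no aligner, counting tool or annotation is given in the sources used here. A second sheet with 23 columns for 6 genes matches no sample by name and stayed out. Dropping 2 blank lines left 25947 entries.

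Of these, 13364 reached 1 TPM in 3 or more samples and were fitted with limma 3.58.1 (R 4.3.3) on log2(TPM + 1), with a mean per group, all 12 samples in 1 fit, a variance trend, 5 contrasts and Benjamini-Hochberg adjustment per contrast. Samples were grouped by the labels' treatment. Ratios were compared by exact permutation within diets or operations. With 3 samples against 3, an exact test of a single comparison could not go below p = 0.1. Depth per sample is unknown on the TPM scale. Plots used matplotlib 3.10.9 (Python 3.11.15). The fit was tested on simulated data.

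The 10 genes, the other lists and the markers were chosen with earlier results of these data known. Of 79 other iron and heme genes, 78 were found by symbol and 75 passed the filter. All 10 genes are given in every contrast. From each other list, the 2 largest called rises and falls with IRI are named, and up to 6 called genes by p in the other contrasts. Hmox2, Blvra, Uros, Hp, Bach1, Nfe2l2, Il6, Stat3, Bmp2, Bmp6, BMP receptors, Smad1, Smad4, Smad5, Smad6, Smad7, Id1, Atoh8, Ireb2, Lyve1, Kdr, Apob, F10, Spp1, Hamp2 with IRI, Ftl1-ps1 and Vsig4 were named after their values were seen. Single values of some listed genes are not reported here. Alternatives tried were no filter, a pseudocount of 0.1, median-ratio scaling, quantile normalization, no variance trend, only the groups compared, the replicate number as a block, leaving out each sample, and leaving out ND-Sham 1 and ND-IRI 1 together, which stood apart in earlier results. The diet contrast over both operations and the ratio tests were added after seeing the data.

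Promoter windows were matched by symbol for 6 of the 10 genes in the RefSeq table.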

Additional observations from a re-analysis of the deposited data

Results flagged for a closer look

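Trf, transferrin, was singled out because every IRI sample lay below every sham sample on the high-fat diet, while every IRI sample lay above every sham sample on the normal diet. It averaged 10952 ± 194 TPM in HFD-IRI and 13255 ± 1139 TPM in HFD-Sham livers, and 13438 ± 863 TPM in ND-IRI and 11616 ± 325 TPM in ND-Sham livers (SD, n = 3 each). The difference between the IRI effects was -0.48 on the log2 scale (SE 0.164, limma unadjusted p = 0.0124, where 10.1% of all genes had an unadjusted p under 0.05), and it did not pass adjustment over all genes (adjusted p = 0.308, and 0.142 to 0.762 over 19 alternatives, in which the estimate stayed between -0.55 and -0.28). Trf was singled out by these same values, so the unadjusted p describes the pattern and cannot test it. The 10.1% is a share over genes that were not selected this way. The normal diet effect was -0.0044 after median-ratio scaling.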

How the results depend on the processing

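Hmox1 and Slc39a14 kept their calls with IRI in 14 of 14 alternatives on each diet. Members called in HFD-Sham against ND-Sham livers numbered 2 as reported, 0 with no filter or median-ratio scaling, 1 with no variance trend, with only the groups compared or with the replicate number as a block, and 0 to 3 when single samples were left out. In HFD-IRI against ND-IRI livers 1 was called as reported, 0 with only the groups compared, and 0 to 1 when single samples were left out. With IRI, 4 to 6 were called on the high-fat and 4 to 5 on the normal diet when single samples were left out. The replicate block changed no other call of the 10 genes. Deviations of samples with the same number correlated at -0.19 to 0.42 over 18 pairs (median -0.03). For samples with different numbers the correlation was -0.41 to 0.31 over 36 pairs (median 0.01). With 3 samples a group, these values cannot decide whether the numbers mark a pairing. Of 940 values of single genes under alternatives, 857 kept direction and side of the threshold, 27 lost the call, 5 gained it and 51 changed sign, none of the last being a called value.

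Median-ratio scaling turned Trf (-0.0044), Ftl1 (-0.070) and Tfrc (-0.018) in ND-IRI against ND-Sham, Hpx in HFD-IRI against HFD-Sham (-0.0032), Trf (-0.016) and Slc40a1 (-0.15) in HFD-Sham against ND-Sham, and Slc39a14 (-0.10) and Slc40a1 (-0.018) over both operations. Quantile normalization turned Tfrc (-0.094) and Hamp (0.017) with IRI on the normal diet, Hpx (0.074) and Slc40a1 (-0.15) in the sham diet comparison, and Trf (0.038), Slc39a14 (-0.088) and Slc40a1 (-0.033) over both operations. Leaving out ND-Sham 1 and ND-IRI 1 together turned Tfrc (-0.10) and Hamp (0.093) with IRI on the normal diet, Hpx in the sham diet comparison (0.17), Fth1 (-0.00019) and Slc40a1 (-0.12) in the difference of the IRI effects, and Slc39a14 over both operations (-0.13). When single samples were left out, the range crossed 0 for Hamp (-0.47 to 0.27) and Tfrc (-0.021 to 0.34) with IRI on the normal diet and for Hamp (-0.13 to 1.37), Tfrc (-0.042 to 0.30) and Hpx (-0.15 to 0.17) with IRI on the high-fat diet. It crossed 0 for Hpx (-0.28 to 0.17) and Slc40a1 (-0.17 to 0.20) in the sham diet comparison, for Slc40a1 (-0.00088 to 0.24) in the IRI diet comparison, and for Slc39a14 (-0.12 to 0.20) and Slc40a1 (-0.014 to 0.17) over both operations. In the difference of the IRI effects it did so for Slc40a1 (-0.055 to 0.32), Tfrc (-0.22 to 0.21), Fth1 (-0.032 to 0.27) and Hamp (-0.065 to 1.43). The cause was not tested.

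Over all genes, 780 called in HFD-Sham against ND-Sham became 493 with median-ratio scaling, 367 with only the groups compared, 1730 without ND-Sham 1 and ND-IRI 1, and 248 to 1047 without single samples. The 516 called in HFD-IRI against ND-IRI became 304 with only the groups compared and 240 to 609 without single samples. The 13 called for the difference became 25 with a pseudocount of 0.1, 21 with no filter or quantile normalization, 335 without ND-Sham 1 and ND-IRI 1, and 2 to 89 without single samples. With 3 samples a group and unknown depth, small changes of low genes such as Tfrc could not be resolved.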
